A study of Mus musculus with 9 samples.

Results

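The 10 genes described here control the G1 phase of the cell cycle: the D-type cyclins *Ccnd1*, *Ccnd2* and *Ccnd3*, the kinases *Cdk4* and *Cdk6*, the E-type cyclins *Ccne1* and *Ccne2*, the inhibitors *Cdkn1b* and *Cdkn2a*, and the retinoblastoma gene *Rb1*. They were chosen by name for their function, with earlier results of these data known. By symbol they were matched to 10 of the 55471 gene IDs of the count table. All 10 passed the filter on low counts in every comparison. RNA was sequenced from mouse embryoid bodies (EBs), the spheres that embryonic stem (ES) cells form in hanging drops, after 3 further days of differentiation on gelatin. The 9 libraries fall into 3 groups of 3. WT EBs came from the parental ES line, which the labels give as E14. KO EBs came from 1 CRISPR-Cas9 clone of that line, *Tnfaip2*-/-, with a premature stop codon in the second exon. KO_PAPC EBs came from the same *Tnfaip2*-/- clone and received the fatty acid palmitic acid (PA) together with its carnitine ester, palmitoyl-L-carnitine (PC), each at 8 μM. By the study's methods, treated EBs had PA/PC both in the 3 days of EB formation and in the 3 days after plating. Those methods name mouse embryonic fibroblast medium for forming treated EBs. For EBs in general they name ES cell medium, which held leukemia inhibitory factor. Where the forming medium differed, it cannot be told apart from PA/PC. Since WT EBs with PA/PC are not analysed here, the PA/PC comparison is within the mutant, and the mutation cannot be told apart from other properties of the clone.

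In G1, mitogen signals raise D-type cyclins, which bind CDK4 or CDK6 and begin the phosphorylation of the RB protein. Phosphorylated RB releases E2F transcription factors, whose targets include the E-type cyclins, and cyclin E with CDK2 then drives entry into S phase. The inhibitors oppose these kinases: p27, the product of *Cdkn1b*, binds cyclin-CDK complexes, and *Cdkn2a* encodes both p16, which binds CDK4 and CDK6, and p19ARF, which acts on the p53 pathway. Pluripotent mouse ES cells are known for a short G1 phase with much cyclin E and little cyclin D, and G1 lengthens as they differentiate.

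The libraries held between 27362913 and 28914312 counts. *Tnfaip2* itself had 16, 6 and 10 counts in the WT libraries, 5, 6 and 8 in the KO libraries and 25, 14 and 16 in the KO_PAPC libraries. At this depth its RNA gives no check of the genotype labels, and a frameshift need not lower the RNA. Levels are given below as CPM, that is, counts scaled to the library total, and as CPM per kilobase of exon (CPM per kb) where genes are set against each other. Fold changes come from edgeR, whose TMM size factors were close to equal between WT and KO. With library totals in place of TMM, the median over all genes of the log2 fold change moved by -0.17 in KO_PAPC versus KO and by -0.16 in KO_PAPC versus WT, and the share of called genes that were higher went from 48.4% to 37.98% and from 48.4% to 30.2%. Genes are described as called when the adjusted p was under 0.05 in edgeR's quasi-likelihood test with Benjamini-Hochberg adjustment over all genes tested.

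Loss of *Tnfaip2* was first compared with WT. In KO EBs *Ccnd2*, *Cdk6* and *Cdkn1b* fell the most of the 10 genes, *Ccnd1* and *Cdk4* fell less, and *Ccne1*, *Cdkn2a*, *Ccnd3* and *Rb1* rose. Of the 10 genes, 9 were called, 4 higher and 5 lower, where 73.8% of the 17355 genes tested were called, 36.8% higher and 37.1% lower. *Ccne2* was the gene that was not called. In a test against a fold change of 2 (edgeR's glmTreat), *Ccnd2*, *Cdk6* and *Cdkn1b* passed, 3 of 10, where 9.14% of all genes passed. The CPM of the KO and WT libraries did not overlap for 9 of the 10 genes, against 75.2% of all genes. Most of the genes tested thus differed between KO and WT.

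PA/PC was then compared within the mutant. All 10 genes were called in KO_PAPC versus KO, where 81.8% of the 17167 genes tested were called. *Cdk6*, *Ccnd2*, *Cdkn1b*, *Ccnd1*, *Cdk4* and *Ccne2* rose and *Cdkn2a*, *Rb1*, *Ccnd3* and *Ccne1* fell, 6 and 4 genes, beside 39.6% of all genes higher and 42.2% lower. Against a fold change of 2, 5 genes passed: *Ccnd1*, *Ccnd2*, *Cdk6* and *Cdkn1b*, which were higher, and *Cdkn2a*, which was lower. Of all genes 20.7% passed that test. None of the 10 genes overlapped in CPM between KO_PAPC and KO, as was so for 82.1% of all genes.

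KO_PAPC was finally set against WT, a comparison that shares its libraries with the other two. Here 9 of the 10 genes were called, 5 higher and 4 lower, where 70.6% of the 16655 genes tested were called, 34.2% higher and 36.4% lower. *Cdk6* was not called. *Cdkn2a*, which fell, was the gene of the 10 that passed the test against a fold change of 2, where 8.02% of all genes passed. CPM did not overlap for any of the 10 genes, *Cdk6* included, against 73% of all genes. The median absolute log2 fold change over all genes was 0.36 between KO and WT, 0.54 between KO_PAPC and KO, and 0.33 between KO_PAPC and WT. The median signed log2 fold change of the 10 genes was -0.16, 0.67 and 0.13 in that order, beside -0.01, -0.02 and -0.02 over all genes, and the last of these for the 10 genes turned to -0.03 with library totals.

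**Figure D1:**
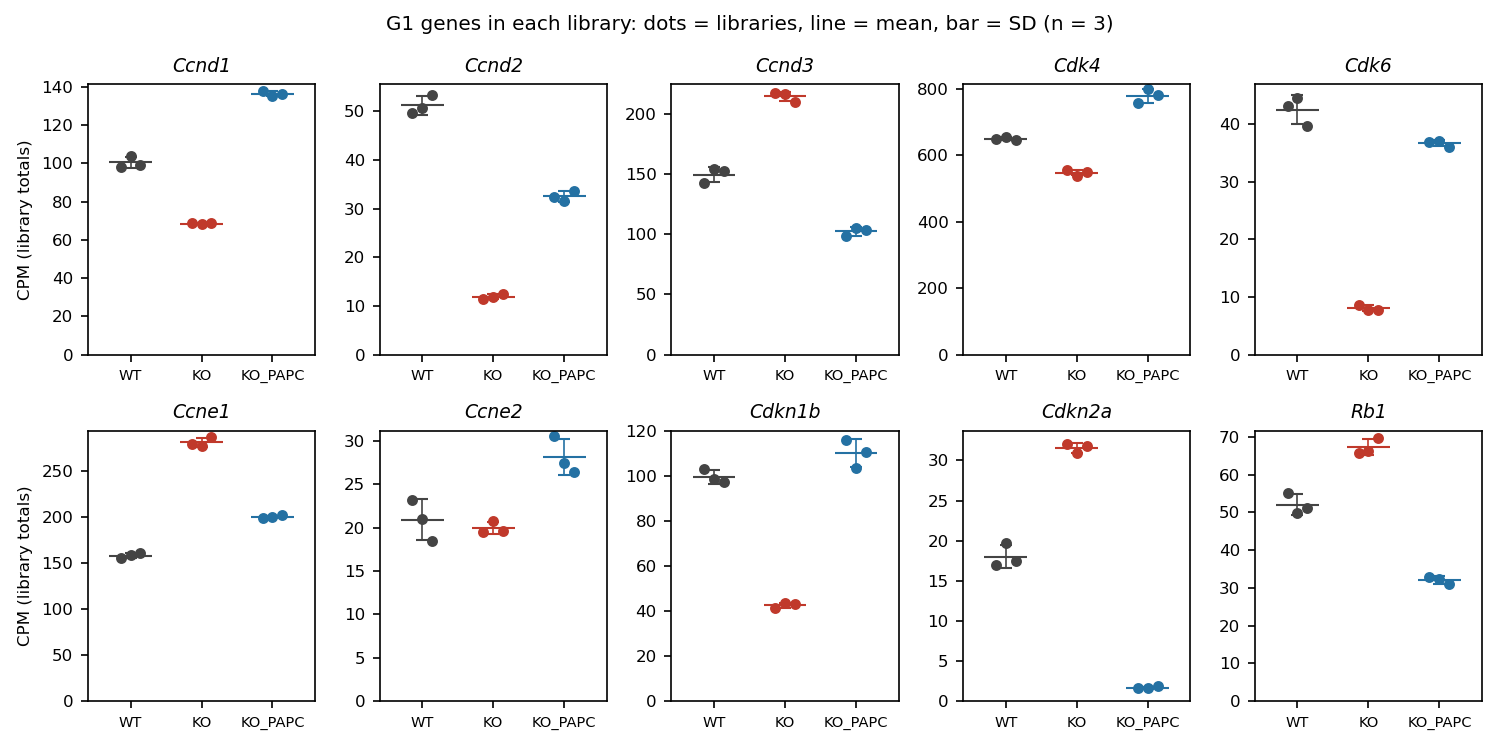
CPM of the 10 G1 genes (y axis, from 0, a scale for each gene) in the 3 WT, 3 KO and 3 KO_PAPC libraries (x axis), with dots for libraries, lines for group means and bars for SD. *Cdk6* lies at 7.67 to 8.65 CPM in KO and above 36 CPM in both other groups, and *Cdkn2a* lies below 2 CPM in KO_PAPC.

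**Figure D2:**
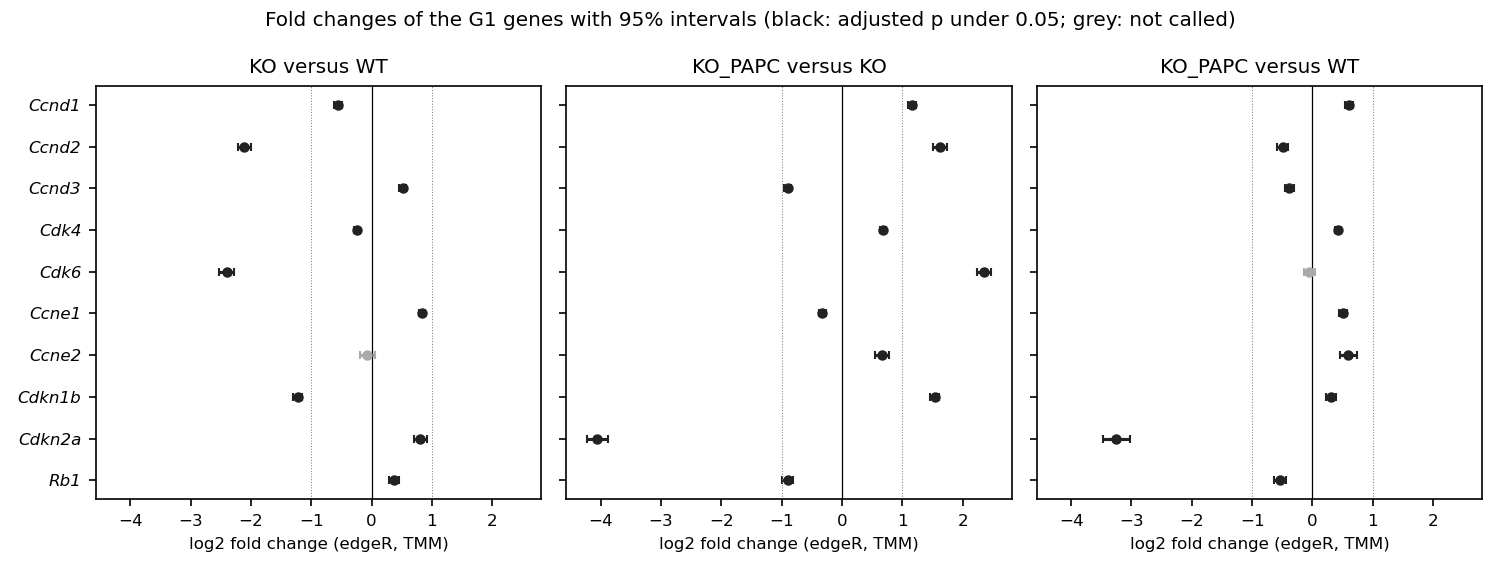
Log2 fold changes of the 10 G1 genes (x axis) with 95% intervals from the edgeR fit in the 3 comparisons (panels), black where called and grey where not, with dotted lines at a fold of 2. *Ccne2* in KO versus WT and *Cdk6* in KO_PAPC versus WT are the values that were not called.

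Cell type markers moved with these groups. Most of all genes tested were called as well, 73.8% between KO and WT, 81.8% with PA/PC in the mutant and 70.6% for treated mutant against WT EBs. No marker list was tested against these shares. The summed CPM of 9 pluripotent cell markers was 2884 to 2905 in WT, 4439 to 4468 in KO and 2881 to 2912 in KO_PAPC. The markers did not move alike: all 9 were called between KO_PAPC and WT, 4 higher and 5 lower, with *Tfcp2l1* at a mean of 103 CPM in WT and 34.2 in KO_PAPC and *Tdgf1* at 381 and 648 CPM. Of the 8 endoderm markers, all 8 were called lower in KO than in WT and again lower in KO_PAPC than in KO, with summed CPM of 849 to 913, 456 to 461 and 77.2 to 78.3. Neuroectoderm markers (6 genes, among them *Sox1* and *Pax6*) summed to 143 to 148 CPM in WT, 50.98 to 54.9 in KO and 232 to 235 in KO_PAPC, with 5 of 6 called lower in KO versus WT and 6 of 6 higher in KO_PAPC versus KO. The 6 mesoderm markers summed to 39.9 to 43.6, 31.4 to 32.0 and 49.7 to 52.5 CPM, with *Mesp1* near 0 (group means 0.17, 0.18 and 0.25 CPM). Of the 5 tested, 1 was called higher and 3 lower in KO than in WT, and 4 higher and 1 lower in KO_PAPC than in KO. Between KO_PAPC and WT, 2 were called higher and 1 lower. *T* had group means of 1.91, 0.29 and 15.5 CPM, *Kdr* 1.94, 6.42 and 0.52 CPM, and *Eomes* 34.7, 22.5 and 29.1 CPM. The 6 fibroblast markers summed to 50.6 to 51.7, 35.6 to 36.2 and 18.6 to 21.1 CPM, a fall carried by *Pdgfra* (group means 35.4, 13.3 and 2.34 CPM), since 4 of the 6 were called higher and 1 lower in KO_PAPC than in WT, and 2 higher and 2 lower than in KO. In this list *Col3a1* was near 0 (group means 0.036, 0.082 and 0.66 CPM). With library totals, KO_PAPC against WT gave 2 pluripotent cell markers higher and 6 lower, and 2 fibroblast markers higher and 2 lower. The mesoderm markers gave 2 higher and 2 lower there. *Tfcp2l1*, *Tdgf1*, *T*, *Kdr*, *Eomes* and *Pdgfra* were named after their values were seen. The part of these markers' cell types in the differences of the G1 genes was not tested. In whole EBs, a change in how many cells of a type are present cannot be told apart from a change in RNA per cell.

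D-type cyclins are the regulatory subunits that activate CDK4 and CDK6. *Ccnd1* (chr7:144929931-144939925, minus strand, GRCm38) stood at 98.2, 104 and 99.3 CPM in the WT libraries, 68.5, 68.0 and 69.0 in KO and 138, 135 and 136 in KO_PAPC. The groups did not overlap, with KO lowest and KO_PAPC highest. *Ccnd1* was 1.47-fold lower in KO than in WT (log2 fold change -0.55, SE 0.032, edgeR adjusted p = 7.87e-17) and 2.23-fold higher in KO_PAPC than in KO (log2 fold change 1.16, SE 0.031, edgeR adjusted p = 3.34e-28). In KO_PAPC it was 1.52-fold above WT (log2 fold change 0.60, SE 0.033, edgeR adjusted p = 2.01e-14).

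*Ccnd2* (chr6:127125162-127152193, minus strand) had the second largest fall of the 10 genes in KO. Its levels were 49.6, 50.8 and 53.4 CPM in WT, 11.3, 11.8 and 12.4 in KO and 32.3, 31.5 and 33.7 in KO_PAPC. The KO_PAPC libraries lay between the other groups and overlapped neither. The fall in KO was 4.32-fold (log2 fold change -2.11, SE 0.052, edgeR adjusted p = 1.48e-27) and the rise with PA/PC was 3.07-fold (log2 fold change 1.62, SE 0.057, edgeR adjusted p = 1.22e-24). Between KO_PAPC and WT the log2 fold change was -0.49 (SE 0.044, edgeR adjusted p = 3.83e-10), so *Ccnd2* was still 1.41-fold lower than in WT.

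*Ccnd3* (chr17:47505051-47599691, plus strand) moved in the opposite direction to the other D-type cyclins both in KO and with PA/PC. It stood at 142, 154 and 152 CPM in WT, 217, 216 and 210 in KO and 98.2, 105 and 104 in KO_PAPC, with no overlap between groups. It was 1.44-fold higher in KO than in WT (log2 fold change 0.52, SE 0.028, edgeR adjusted p = 1.05e-17) and 1.87-fold lower in KO_PAPC than in KO (log2 fold change -0.90, SE 0.030, edgeR adjusted p = 3.38e-25). Relative to WT, *Ccnd3* in KO_PAPC was 1.30-fold lower (log2 fold change -0.38, SE 0.036, edgeR adjusted p = 7.07e-10).

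Per kilobase of exon the 3 D-type cyclins can be set against each other. Their summed level was 43.8 ± 1.34 CPM per kb (SD, n = 3) in the WT libraries, 40.3 ± 0.304 in KO and 44.1 ± 0.219 in KO_PAPC, a narrow range beside the changes of the single genes. These sums rest on the exon lengths and on library totals. In the fit of KO_PAPC and KO the TMM factors were 1.06 in KO and 0.94 in KO_PAPC. With TMM the sum in KO_PAPC would thus stand further above KO. *Ccnd1* made up 48.7% ± 0.779 (SD, n = 3) of the D-type sum per kilobase in the WT libraries, 36.1% ± 0.496 in KO and 65.7% ± 0.841 in KO_PAPC. *Ccnd3* made up 38.9% ± 0.514, 60.7% ± 0.640 and 26.5% ± 0.891. *Ccnd2* made up 12.4% ± 0.436, 3.13% ± 0.165 and 7.84% ± 0.235. By CPM per kb, the most abundant D-type cyclin transcript was thus *Ccnd1* in WT and in KO_PAPC, and *Ccnd3* in KO. In WT this order rests on the exon length, which counts all annotated exons of a gene. In CPM alone, *Ccnd3* stood above *Ccnd1* in WT (means 149.6 and 100.4). Each of these shares differed between each pair of groups with no overlap (two-sided exact permutation test, p = 0.1 in all 9 tests, the smallest p that 3 against 3 libraries allow, before any adjustment). Exons of *Ccnd1* overlap those of *LTO1* over 23.4% of their length, and where reads that overlap several genes are not counted, as the study's methods state for its STAR mapping, this lowers the level of *Ccnd1* per kb.

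**Figure D3:**
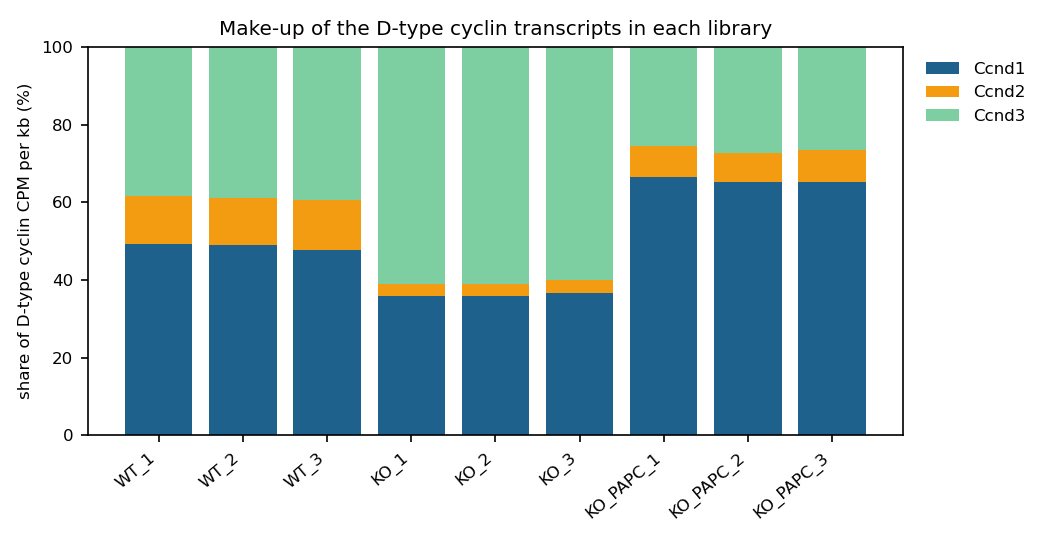
Share of each D-type cyclin (colours) in the summed D-type cyclin CPM per kb (y axis, %, from 0 to 100) in each of the 9 libraries (x axis). *Ccnd3* makes up the largest share in the 3 KO libraries (mean 60.7%) and *Ccnd1* in the 3 WT and 3 KO_PAPC libraries (means 48.7% and 65.7%).

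*Cdk4* and *Cdk6* encode the catalytic partners of the D-type cyclins. *Cdk4* (chr10:127063534-127067920, plus strand) was the most abundant of the 10 transcripts, at 651, 654 and 647 CPM in WT, 556, 539 and 550.0 in KO and 758, 799 and 783 in KO_PAPC. The groups did not overlap, and the differences were moderate. The log2 fold change was -0.25 between KO and WT (SE 0.021, edgeR adjusted p = 1.10e-12), 0.67 between KO_PAPC and KO (SE 0.024, edgeR adjusted p = 3.06e-24) and 0.43 in KO_PAPC versus WT (SE 0.026, edgeR adjusted p = 2.18e-13). Exons of *Tspan31* overlap 19.7% of the exon length of *Cdk4*.

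*Cdk6* (chr5:3341485-3531008, plus strand) had the largest fall of the 10 genes in KO and the largest rise with PA/PC. Its levels were 43.2, 44.6 and 39.8 CPM in WT, 8.65, 7.67 and 7.82 in KO and 37.0, 37.0 and 36.1 in KO_PAPC. The KO libraries stood far below both other groups. *Cdk6* was 5.28-fold lower in KO than in WT (log2 fold change -2.40, SE 0.061, edgeR adjusted p = 5.14e-27), a larger change than that of 97.6% of all genes, and 5.11-fold higher in KO_PAPC than in KO (log2 fold change 2.35, SE 0.060, edgeR adjusted p = 4.53e-29). The difference between KO_PAPC and WT was not called, with a log2 fold change of -0.05 (95% interval -0.15 to 0.05, edgeR adjusted p = 0.363). That call depended on the scaling: with library totals the log2 fold change was -0.21 and *Cdk6* was called lower in KO_PAPC than in WT (edgeR adjusted p = 2.47e-04).

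Per kilobase, *Cdk4* was far above *Cdk6* in every group. It made up 98.5% ± 0.078 (SD, n = 3) of the summed *Cdk4* and *Cdk6* level in the WT libraries, 99.7% ± 0.018 in KO and 98.9% ± 0.034 in KO_PAPC (two-sided exact permutation p = 0.1 for each pair of groups). The sum itself was 203 ± 1.39 CPM per kb in WT, 169 ± 2.65 in KO and 243 ± 6.41 in KO_PAPC.

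MYC family proteins bind the E-box CACGTG, and *Mycl* of that family moved with these groups as described below. The promoters of both kinases are shown for this motif. Windows of 250 bases before the RefSeq start (GRCm38.p6) were searched on both strands, and bases inside an annotated exon were left out. Capitals mark the E-box, which lies in 6.02% of the 32851 windows of 250 bases. These rates over all windows were counted with exon bases kept, so they cover more bases than a cut window. The *Cdk4* window (chr10:127063285-127063533, plus strand) holds 4 of them, starting 172, 118, 98 and 11 bases before the start, and 0.021% of all windows hold 4 or more. The *Cdk6* window keeps 89 bases outside exons (chr5:3343643-3343731, plus strand) and holds 1, starting 220 bases before the RefSeq start. This window lies within the gene's span, which begins upstream at chr5:3341485, so it is not the region before the whole gene. The windows of *Cdkn1b*, *Cdkn2a*, *Ccne1* and *Ccnd3* hold 0 E-boxes outside exons. An E-box match is a description of letters and not a measured binding site, and a part of MYC proteins in these levels was not tested.
Cdk4 promoter: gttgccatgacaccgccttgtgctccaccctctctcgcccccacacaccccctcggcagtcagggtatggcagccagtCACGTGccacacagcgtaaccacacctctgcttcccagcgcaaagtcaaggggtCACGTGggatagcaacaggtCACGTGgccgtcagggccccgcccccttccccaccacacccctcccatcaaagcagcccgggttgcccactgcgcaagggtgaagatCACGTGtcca
Cdk6 promoter: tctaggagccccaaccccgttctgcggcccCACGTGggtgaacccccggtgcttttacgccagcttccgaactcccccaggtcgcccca

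E-type cyclins activate CDK2 at the entry into S phase. *Ccne1* (chr7:38097984-38107534, minus strand) stood at 155, 158 and 161 CPM in WT, 280.1, 277 and 287 in KO and 199.7, 200.1 and 202 in KO_PAPC. KO was highest and KO_PAPC lay between, with no overlap. *Ccne1* was 1.78-fold higher in KO than in WT (log2 fold change 0.83, SE 0.025, edgeR adjusted p = 8.11e-25). It was lower with PA/PC but did not reach the WT level. The log2 fold change was -0.32 in KO_PAPC versus KO (SE 0.026, edgeR adjusted p = 1.06e-13) and of 0.51 in KO_PAPC versus WT (SE 0.029, edgeR adjusted p = 7.15e-14).

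*Ccne2* (chr4:11191351-11204779, plus strand) was lower and more variable, at 23.2, 21.0 and 18.5 CPM in WT, 19.5, 20.8 and 19.6 in KO and 30.6, 27.4 and 26.5 in KO_PAPC. WT and KO overlapped, and the KO_PAPC libraries lay above both. KO versus WT gave a log2 fold change of -0.07 (95% interval -0.19 to 0.06, edgeR adjusted p = 0.341). This value turned on single WT libraries: it was 0.01 without WT replicate 1, and -0.15 and called without WT replicate 3 (edgeR adjusted p = 0.0321). *Ccne2* was 1.58-fold higher in KO_PAPC than in KO (log2 fold change 0.66, SE 0.056, edgeR adjusted p = 3.12e-13) and 1.51-fold higher than in WT (log2 fold change 0.59, SE 0.068, edgeR adjusted p = 2.91e-08).

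Together the E-type cyclins summed to 65.4 ± 0.440 CPM per kb (SD, n = 3) in the WT libraries, 111 ± 1.79 in KO and 83.4 ± 0.384 in KO_PAPC. Per kilobase this was above the D-type cyclins in every group, an order that rests on exon length. The exons of *Ccne1* span 2.662 kb, those of *Ccnd3* 8.775 kb and those of *Ccnd2* 9.409 kb. In CPM alone, the D-type cyclins summed higher than the E-type cyclins in WT and in KO_PAPC. *Ccne1* was 90.8% ± 1.10 of the E-type sum per kilobase in WT, 94.9% ± 0.235 in KO and 90.3% ± 0.701 in KO_PAPC. The share in KO differed from both other groups without overlap (two-sided exact permutation p = 0.1 in each, the smallest possible). Between KO_PAPC and WT the exact permutation p was 0.5.

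*Cdkn1b* encodes p27, an inhibitor of cyclin E-CDK2 that is also bound by cyclin D complexes. It (chr6:134920401-134925513, plus strand) stood at 103, 98.6 and 97.2 CPM in WT, 41.4, 43.6 and 43.0 in KO and 116, 104 and 111 in KO_PAPC. The KO libraries were set apart from the rest, and KO_PAPC lay just above WT. The fall in KO was 2.33-fold (log2 fold change -1.22, SE 0.035, edgeR adjusted p = 2.07e-25) and the rise with PA/PC 2.90-fold (log2 fold change 1.54, SE 0.039, edgeR adjusted p = 5.15e-29). KO_PAPC was 1.24-fold above WT (log2 fold change 0.31, SE 0.039, edgeR adjusted p = 1.16e-07).

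*Cdkn2a* (chr4:89274471-89294653, minus strand) had the largest change of the 10 genes. Its levels were 16.9, 19.7 and 17.5 CPM in WT, 32.0, 30.9 and 31.7 in KO and 1.62, 1.61 and 1.83 in KO_PAPC, the last being 45, 44 and 51 counts. It was 1.75-fold higher in KO than in WT (log2 fold change 0.81, SE 0.054, edgeR adjusted p = 2.53e-15). With PA/PC it fell 16.6-fold below KO (log2 fold change -4.06, SE 0.087, edgeR adjusted p = 1.78e-31) and 9.51-fold below WT (log2 fold change -3.25, SE 0.11, edgeR adjusted p = 7.87e-19). In absolute log2 fold change it stood above 97.0% of all genes in KO_PAPC versus KO and above 98.3% in KO_PAPC versus WT.

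The p16 and p19ARF transcripts of *Cdkn2a* start at separate promoters and share later exons, so a count per gene does not tell them apart. RefSeq gives a start upstream and a start within the gene's span, and the windows before both are shown for this reason. Each was searched for the E2F site in the forms TTTCCCGC, TTTGGCGC, TTTCGCGC and TTTGCCGC on both strands, which lie in 1.86% of the 32851 windows. Capitals mark the match. The upstream window (chr4:89294654-89294869, minus strand, 216 bases outside exons) holds 1 match, starting 99 bases before the start. The downstream window (chr4:89282193-89282442, minus strand) holds none of these letters. The windows of *Ccne1*, *Cdk4*, *Cdk6*, *Cdkn1b* and *Ccnd3* hold 0 of these E2F sites outside exons. An E2F match is a description of letters and not a measured binding site.
Cdkn2a upstream promoter: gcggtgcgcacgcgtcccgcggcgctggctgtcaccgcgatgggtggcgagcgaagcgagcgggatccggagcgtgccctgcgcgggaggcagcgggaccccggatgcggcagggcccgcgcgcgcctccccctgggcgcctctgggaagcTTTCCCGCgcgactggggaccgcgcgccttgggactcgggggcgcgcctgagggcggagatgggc
Cdkn2a downstream promoter: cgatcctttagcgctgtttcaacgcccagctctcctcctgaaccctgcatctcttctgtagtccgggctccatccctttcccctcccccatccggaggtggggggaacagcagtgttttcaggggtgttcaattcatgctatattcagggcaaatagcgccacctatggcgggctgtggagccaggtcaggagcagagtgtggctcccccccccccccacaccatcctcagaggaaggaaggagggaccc

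*Rb1* encodes the RB protein, the substrate of the cyclin D kinases and a repressor of E2F. It (chr14:73183673-73325822, minus strand) stood at 55.2, 49.8 and 51.3 CPM in WT, 65.9, 66.3 and 69.7 in KO and 32.9, 32.2 and 31.0 in KO_PAPC. KO was highest, KO_PAPC lowest, and no groups overlapped. Its log2 fold change was 0.37 between KO and WT (SE 0.039, edgeR adjusted p = 2.12e-10), -0.90 between KO_PAPC and KO (SE 0.041, edgeR adjusted p = 4.13e-21) and -0.54 in KO_PAPC versus WT (SE 0.047, edgeR adjusted p = 2.32e-10).

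Ordered by level per kilobase, *Cdk4* and *Ccne1* led in every group, at 200.3 and 59.4 CPM per kb in WT, 169 and 106 in KO and 240.0 and 75.4 in KO_PAPC. In WT they were followed by *Cdkn1b* (21.9) and *Ccnd1* (21.3), which overlapped, by *Ccnd3* (17.0) and *Cdkn2a* (15.4), which overlapped too, and by *Rb1* (8.66), *Ccne2* (5.98) and *Ccnd2* (5.45), the last pair again overlapping, with *Cdk6* (3.04) last. In KO *Cdkn2a* (26.9 CPM per kb) and *Ccnd3* (24.4) came next, *Cdkn1b* (9.37) came after *Ccnd1* (14.5) and *Rb1* (11.2), and *Ccnd2* (1.26) and *Cdk6* (0.575) closed the order. In KO_PAPC *Ccnd1* (28.9 CPM per kb) and *Cdkn1b* (24.2) came next, and *Cdkn2a* (1.44) was last, below *Cdk6* (2.62). No neighbours in the KO and KO_PAPC orders overlapped.

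Other genes of the pathway were counted in lists chosen by function. Their counts should be read beside the shares of all genes tested. Between KO and WT, 36.8% of all genes were called higher and 37.1% lower. With PA/PC in the mutant these shares were 39.6% and 42.2%, and for treated mutant against WT EBs 34.2% and 36.4%. No list was tested against these shares, so a large number called is not by itself a property of a list. Of 12 E2F and pocket protein genes, KO EBs had 3 called higher and 7 called lower than WT, KO_PAPC EBs had 8 higher and 3 lower than KO, and 9 higher and 2 lower than WT, with medians of -0.15, 0.39 and 0.27 on the log2 scale. With library totals KO_PAPC had 8 higher and 4 lower than KO (median 0.22), and 6 higher and 3 lower than WT (median 0.11). *E2f4*, an E2F that acts mainly as a repressor with pocket proteins, had means of 241, 176 and 318 CPM in WT, KO and KO_PAPC (log2 fold change -0.45 in KO versus WT, edgeR adjusted p = 1.50e-16). *Tfdp1*, the dimerisation partner of E2Fs, had means of 143, 109 and 180.4 CPM (log2 fold change -0.40, edgeR adjusted p = 6.09e-15). *E2f8*, an atypical repressor, rose in both steps, from 31.6 to 48.8 and 53.8 CPM (log2 fold change 0.63 in KO versus WT, edgeR adjusted p = 8.55e-15).

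The other CDK inhibitors did not all follow *Cdkn2a* or *Cdkn1b*. Among 6 genes, KO EBs had 2 called higher and 1 called lower than WT, while KO_PAPC EBs had 1 higher and 5 lower than KO, and 2 higher and 4 lower than WT. The count against WT became 1 higher and 4 lower with library totals. *Cdkn1a*, which encodes p21, a target of p53, had means of 127, 101 and 56.0 CPM in WT, KO and KO_PAPC and fell in both steps (log2 fold changes -0.32 and -0.69, edgeR adjusted p = 1.26e-11 and 1.74e-19). *Cdkn2b*, which encodes p15 and lies beside *Cdkn2a*, had means of 2.82, 3.45 and 0.854 CPM (log2 fold change -1.84 in KO_PAPC versus KO, edgeR adjusted p = 1.05e-11). *Cdkn2c* had 1.54, 2.00 and 0.578 CPM and *Cdkn2d* had 26.5, 25.7 and 21.1 CPM. *Cdkn1c*, which encodes p57, had 9.79, 10.1 and 18.4 CPM and was the gene of this list that rose with PA/PC (log2 fold change 1.03, edgeR adjusted p = 3.20e-16), though *Gm44732* overlaps 30.65% of its exon length. *Cdkn3*, a phosphatase that acts on CDKs, had 12.9, 18.9 and 13.3 CPM.

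The 12 regulators that link mitogen signals to G1, of the MYC, MXD, ID and FOXO families, had the largest medians of the 7 cell cycle lists in KO versus WT and with PA/PC. KO EBs had 4 called higher and 8 called lower than WT (median log2 fold change -0.51). KO_PAPC EBs had 9 higher and 2 lower than KO (median 0.77), and 8 higher and 3 lower than WT (median 0.25). With library totals these were 8 higher and 3 lower (median 0.60), and 6 higher and 3 lower (median 0.09). In that setting the other CDK inhibitors had the median furthest from 0 in KO_PAPC versus KO, at -0.68. *Id2*, an inhibitor of bHLH factors that also binds RB, had means of 86.8, 14.7 and 117 CPM in WT, KO and KO_PAPC (log2 fold change -2.56 against WT in KO, edgeR adjusted p = 1.08e-31, and 3.16 against KO in KO_PAPC, edgeR adjusted p = 1.83e-37). *Mycl* had 39.5, 13.6 and 65.2 CPM (log2 fold change -1.53, edgeR adjusted p = 4.99e-23, and 2.42, edgeR adjusted p = 1.26e-31). *Id1* had 65.3, 26.9 and 64.5 CPM (log2 fold change -1.28, edgeR adjusted p = 2.74e-22, and 1.43, edgeR adjusted p = 2.36e-25). These 3 genes were lowest in KO, as *Cdk6*, *Ccnd2*, *Cdkn1b*, *Ccnd1* and *Cdk4* were. They were named for the smallest adjusted p between KO and WT, so a clear difference there was part of the choice. The list did not move alike. Mean CPM peaked in KO for *Max*, *Mxd1*, *Mxd4* and *Foxo1*, and was lowest in KO for the other 8, these 3 among them.

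Of 8 other G1/S cyclins and kinases, 2 were called higher and 4 lower in KO than in WT, and KO_PAPC had 5 higher and 3 lower than KO, and 6 higher and 2 lower than WT. Scaled to library totals, the count against WT was 4 higher and 2 lower. *Cdc25a*, the phosphatase that activates CDK2, had means of 111, 137 and 116 CPM in WT, KO and KO_PAPC. *Ccna2*, the S phase cyclin, had 256, 225 and 283 CPM, and *Ccnc* had 65.2, 80.8 and 52.0 CPM. Of 12 genes for the turnover of cyclins and p27, KO had 4 called higher and 7 called lower than WT, and KO_PAPC had 7 higher and 3 lower than KO, and 9 higher and 3 lower than WT. Library totals gave 7 higher and 4 lower than KO, and 7 higher and 3 lower than WT. *Skp1a*, a subunit of SCF ubiquitin ligases, had 407, 602 and 463 CPM. *Cks1b*, the cofactor by which SKP2 recognises p27, had 141, 106 and 203 CPM, and *Cul4a*, a ligase scaffold, had 143, 114 and 156 CPM.

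Genes of the later phases were counted the same way. Of 25 S phase genes regulated by E2F, KO had 9 called higher and 7 called lower than WT (median log2 fold change 0.04). KO_PAPC had 22 higher and 2 lower than KO (median 0.45), and 24 higher and 0 lower than WT (median 0.49). *Mcm5*, a subunit of the replicative helicase, had means of 652, 496 and 859 CPM in WT, KO and KO_PAPC, *Cdc6*, a licensing factor, had 78.0, 115 and 83.2 CPM, and *Gins2* had 92.6, 54.0 and 109 CPM, with 67.3% of its exon length overlapped by *Gse1*. Of 25 G2 and mitosis genes, KO had 7 called higher and 9 called lower than WT (median -0.01), and KO_PAPC had 18 higher and 4 lower than KO (median 0.23), and 20 higher and 1 lower than WT (median 0.19). *Cdc20*, an activator of the anaphase-promoting complex, had 190.4, 99.8 and 275 CPM, *Ccnf* had 302, 225 and 273 CPM and *Birc5* had 179, 228 and 163 CPM. With library totals the S phase list gave 19 higher and 3 lower for KO_PAPC against KO and 24 higher and 1 lower against WT, while the G2 and mitosis list gave 12 higher and 8 lower, and 11 higher and 7 lower.

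**Figure D4:**
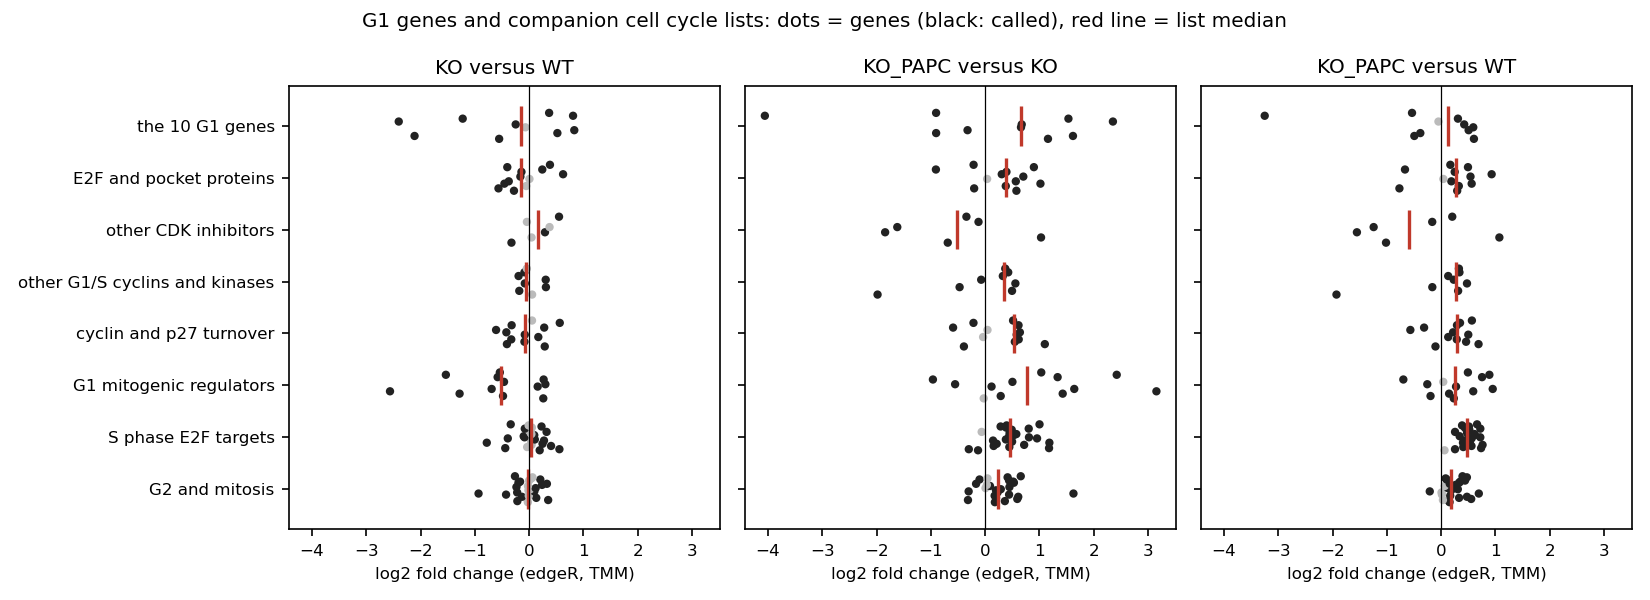
Log2 fold change (x axis) of each of the 10 G1 genes and of each gene in 7 companion lists (rows) in the 3 comparisons (panels), black where called and grey where not, with a red line at the list median. The 10 G1 genes spread from -4.06 to 2.35 in KO_PAPC versus KO, while the 25 S phase genes lie between -0.30 and 1.18.

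Over the 9790 genes that averaged 10 CPM or more, those whose centred log2(CPM + 1) over the 9 libraries lay nearest to each of the 10 were listed by Euclidean distance. Nearest to *Cdk6* were *Wls* (59.3, 12.7 and 46.3 CPM in WT, KO and KO_PAPC, distance 0.439) and *Pkdcc* (56.0, 8.65 and 49.7 CPM, distance 0.482). Nearest to *Ccnd2* were *Grb10* (distance 0.290), an imprinted adaptor of growth factor receptors, and *Mmp14* (0.290). Nearest to *Cdkn2a* were *Rbm47* (26.9, 52.9 and 3.43 CPM, distance 0.379) and *Igsf23* (0.420). Nearest to *Cdkn1b* were *Nmnat1* (0.181) and *Zfp827* (0.193), and nearest to *Ccnd1* were *Marcksl1* (0.105) and *Dpy30* (0.107). Nearest to *Ccne1* were *Axin2* (0.109), a target of Wnt signalling, and *Dusp1* (0.117), and nearest to *Ccne2* were *Myl12a* and *Smarca5* (0.210 each). *Cdk4* lay nearest to *Pcbp2* (0.0528) and *Ube2c* (0.0602), a ubiquitin-conjugating enzyme of mitosis, *Ccnd3* to *Slc9a3r1* (0.0740) and *Zswim1* (0.0878), and *Rb1* to *Kif3b* (0.108) and *Snf8* (0.109).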

How the data were processed

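RNA from 9 libraries of mouse EBs, 3 each of WT, KO and KO_PAPC as the labels give them, was sequenced from TruSeq RNA v2 libraries, which do not mark strand. The authors deposited raw counts per Ensembl gene in 1 table of 55471 IDs. The submitters' processing notes name bcl2fastq 2.20.0.422, STAR 2.7.2b, featureCounts 1.6.5 and GRCm38. The study's methods describe an analysis of KO and WT with an older aligner and counter, and one of KO and KO_PAPC with STAR, which left out reads with more than 1 mapping position and reads shared between genes. The labels name STAR for all 9 libraries. Totals were 27362913 to 28914312 counts per library. Gene names, positions and exon lengths came from GENCODE M21, and 241 IDs had no symbol there. Promoters came from RefSeq (GRCm38.p6), which gave windows for *Cdkn2a*, *Cdk6*, *Cdkn1b*, *Ccne1*, *Cdk4* and *Ccnd3* of the 10 genes.

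Each comparison was fitted on its own 6 libraries with edgeR 4.0.16 in R 4.3.3 (filterByExpr, TMM, glmQLFit and glmQLFTest, two-sided, Benjamini-Hochberg over all genes tested). The SE of a log2 fold change was taken from the F statistic. DESeq2 1.42.0, other scalings and filters, a joint fit, the replicate block and leaving out each library were alternatives. Shares within a family were compared by two-sided exact permutation tests. The scripts were tested on simulated data. Replicates are separate samples by the labels, and no label says that they are separate cultures. The study's methods call them biological replicates, and a figure legend describes those of KO and KO_PAPC as independent pools of EBs. The p-values rest on the spread between these samples, which may be technical. That spread was small: edgeR's common coefficient of variation between replicates was 2.09% for KO versus WT, 2.32% for KO_PAPC versus KO and 2.65% for KO_PAPC versus WT. The 10 genes and all lists were chosen with earlier results of these data known. Named were the 10 genes, the targeted gene, in each list up to 3 genes whose adjusted p in KO versus WT was smallest among those with a mean level of 10 CPM or more (for the other CDK inhibitors, all 6), and the 2 genes nearest in pattern to each of the 10. Markers near 0 were named where they occurred.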

Additional observations from a re-analysis of the deposited data

How the results depend on the processing

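Of 420 values of the 10 genes' fold changes under alternatives, 398 kept their direction and their side of the threshold. Against a minimum fold change of 2 the genes called numbered 3 between KO and WT, 5 between KO_PAPC and KO and 1 between KO_PAPC and WT, and the 19 values that lost their call did so there, where the test itself asks for more. With library totals *Cdk6* was called in KO_PAPC versus WT (-0.21). Leaving out each library in turn, the genes called numbered 9 to 10 between KO and WT, 10 between KO_PAPC and KO and 9 between KO_PAPC and WT. The log2 fold change of *Ccne2* in KO versus WT then ranged from -0.15 (without WT replicate 3, called) to 0.011 (without WT replicate 1, reversed). Of 120 family share differences, 119 kept their direction. The exception was the share of *Ccne1* in KO_PAPC versus WT, -0.51 points, which ranged from -1.05 to 0.046 points and turned positive without WT replicate 3. Exon lengths without overlapping bases, an alternative chosen after seeing the data, changed no direction. The cause of these changes was not tested.

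A fit with a replicate block called 9, 10 and 9 of the genes in the 3 comparisons, as did the fit without it. The pairing is not given by the labels: libraries with the same number had correlations of deviations from -0.15 to 0.23, not all above 0.1. Depth limited *Tnfaip2*, with at most 25 counts in a library.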
